A study of Mus musculus with 20 samples.

Results

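The genes described here are 10 genes of the RANKL-osteoprotegerin system and of the osteoclast, chosen by name: *Tnfsf11* (RANKL), *Tnfrsf11a* (RANK), *Tnfrsf11b* (osteoprotegerin), *Ctsk*, *Acp5*, *Mmp9*, *Ocstamp*, *Dcstamp*, *Calcr* and *Atp6v0d2*. They are 10 of the 25655 genes counted in the mouse utricle. At least 1 read was counted for 7 of them, and for 15803 of all genes, in 1 or more of the 20 libraries. *Dcstamp*, *Calcr* and *Atp6v0d2* had 0 counts in every library and *Ocstamp* had 1 count in all. The genes of precursor fusion and the calcitonin receptor, by which mature osteoclasts are often recognised, were therefore almost without counts, and the list is treated here as a list of genes and not as a measure of osteoclasts.

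Osteoclasts are large cells with several nuclei that form by fusion of precursors of the macrophage lineage and resorb bone. RANKL, made by osteoblasts, osteocytes and stromal cells, binds the receptor RANK on the precursors and drives their differentiation, and osteoprotegerin is a soluble decoy receptor that binds RANKL and keeps it from RANK. Estrogen deficiency is known to raise bone resorption in the skeleton through this system. The utricle is a vestibular end organ of the inner ear, enclosed in bone, whose sensory epithelium carries calcium carbonate crystals called otoconia.

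Female C57BL/6J mice were operated on at the age of 8 weeks and the utricles were sampled 4 weeks later, with 5 libraries in each group. The ovaries were left in place in the sham + v group and removed (ovariectomy, OVX) in the other 3 groups, and every mouse carried a pellet under the skin. The pellet held vehicle in the sham + v and OVX + v groups, 50 µg of estradiol released over 60 days in the OVX + E2 group, and 2.4 mg of raloxifene, a selective estrogen receptor modulator used against osteoporosis, released over 60 days in the OVX + RAL group. Libraries are named by their numbers, 1 to 5 for sham + v, 6 to 10 for OVX + v, 11 to 15 for OVX + E2 and 16 to 20 for OVX + RAL. No label says whether each library came from a separate mouse, so that p-values measure only the spread between these libraries, which may be technical in part.

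The libraries held 1123053 to 2081747 counts of reads from the 3′ ends of transcripts. Levels are given as CPM, which is the count scaled to a library total that is the same for all, and 3 counts, taken here as the floor of detection, made 1.44 to 2.67 CPM. The OVX + E2 libraries were the shallowest group, with 1123053 to 1507667 counts and 7427 to 9680 genes with a count, against 10103 to 10290 genes in the OVX + RAL libraries. The markers of the utricle were present: all 10 hair cell markers and all 11 markers of supporting cells and the otoconial layer were counted, with summed levels of 862 to 1945 CPM and 2966 to 5717 CPM. Floors and intervals cover counting error only, since reads were counted without molecular identifiers.

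The order of the mean levels over the 20 libraries was *Tnfrsf11b* (16.6 ± 27.1 CPM, SD, n = 20), *Ctsk* (11.4 ± 16.7), *Mmp9* (5.07 ± 12.3), *Acp5* (2.88 ± 7.19), *Tnfsf11* (1.39 ± 6.23), *Tnfrsf11a* (0.866 ± 3.02) and *Ocstamp* (0.0257 ± 0.115). Neighbours in this order differed by less than the SD of the higher gene. The order pools the 4 groups and did not hold in each. In sham + v, *Ctsk* (23.7 CPM) and *Acp5* (7.91 CPM) lay above *Tnfrsf11b* (5.59 CPM). These levels count 1 tag per transcript end and are not divided by transcript length. *Tnfrsf11b* ranked 7922nd and *Ctsk* 9154th among the 25655 genes by mean CPM. Both reached 3 counts in 11 of 20 libraries, *Acp5* in 5, *Mmp9* in 4, and *Tnfsf11* and *Tnfrsf11a* in 1 each.

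**Figure D1:**
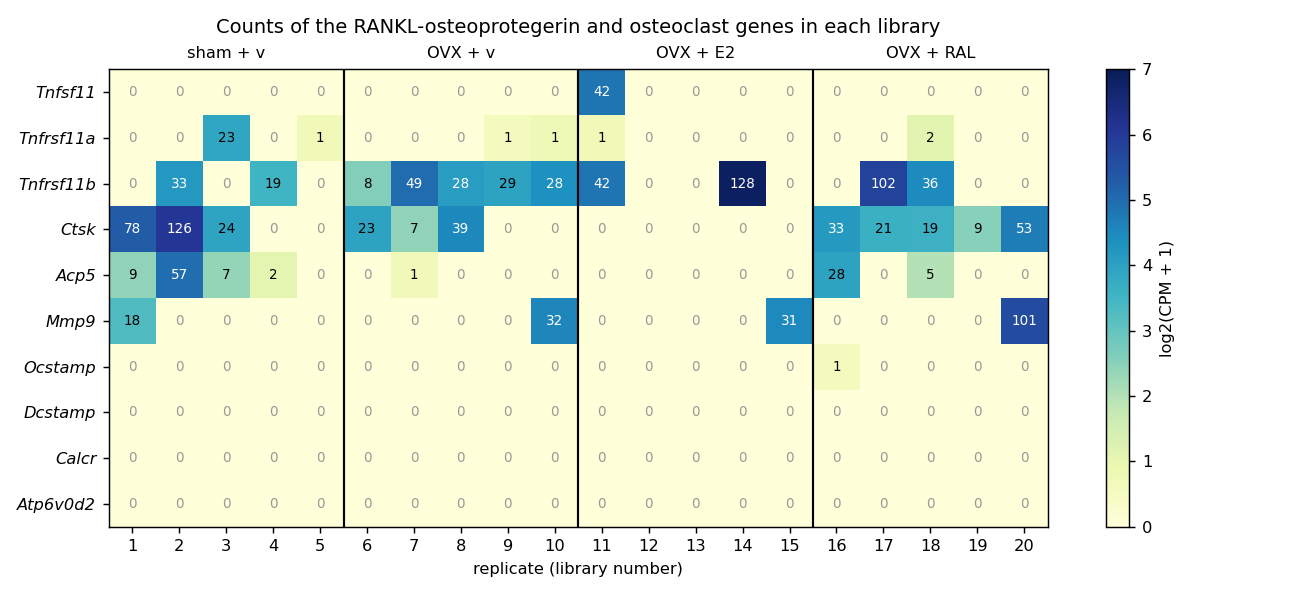
Counts of the 10 genes in each of the 20 libraries, with libraries by number on the horizontal axis, genes on the vertical axis, and colour for log2(CPM + 1). The bottom rows hold almost only 0, *Tnfrsf11b* is filled across the 5 OVX + v libraries, and *Ctsk* is filled across the 5 OVX + RAL libraries and empty in the OVX + E2 group.

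For *Ctsk* and *Tnfrsf11b* this scatter over libraries was near that of other genes at the same level. Among the 4049 genes with a mean of 5 to 20 CPM, the median gene reached 3 counts in 10 libraries (interquartile range 7 to 12), and 5.85% did so in at least 15. *Mmp9*, with 4 libraries, lay below this interquartile range, but its mean of 5.07 CPM is at the low edge of these levels. In a narrower bin of mean level, centred on 4.22 CPM, the median was 5 libraries. The 10th to 90th percentile there was 2 to 7, which takes in *Mmp9*. Among the 2585 genes with a mean of 1 to 5 CPM the median was 3 libraries (2 to 4). *Acp5* at 5 lay above this interquartile range and *Tnfsf11* at 1 below it. In narrower bins, centred on 2.37 CPM for *Acp5* and 1.33 CPM for *Tnfsf11*, the medians were 3 and 2 libraries. The 10th to 90th percentiles there were 1 to 5 and 1 to 3, which take in both members. No member reached 3 counts in 15 libraries, the minimum set for a correlation with cell markers or for a search of genes with a like pattern, and neither is given.

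**Figure D2:**
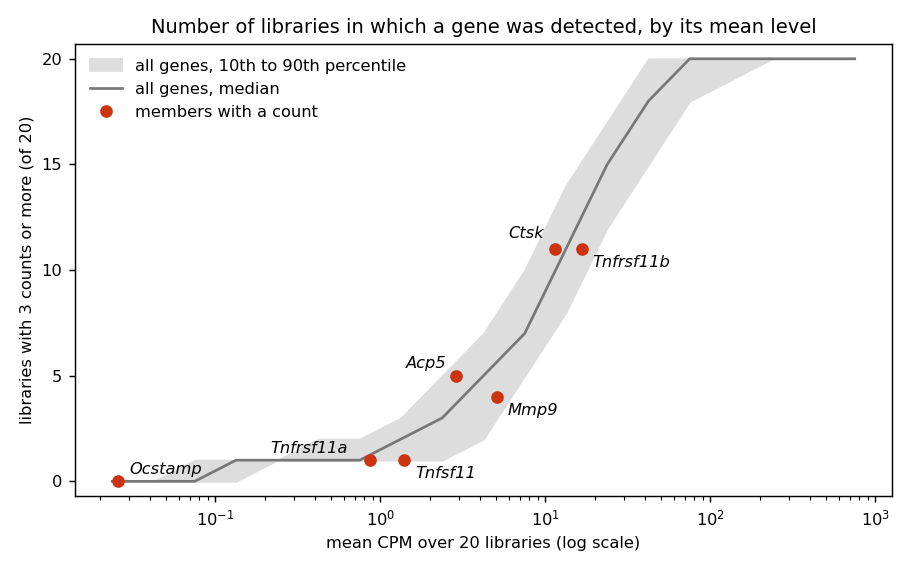
Number of the 20 libraries in which a gene reached 3 counts (vertical axis) against its mean level over the 20 libraries (horizontal axis, CPM, log scale), with the median and the 10th to 90th percentile over all genes with a count and the 7 members with a count as points. *Ctsk* and *Tnfrsf11b* lie at 11 libraries, within the band of all genes.

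The promoters of *Ctsk*, *Acp5* and *Tnfsf11* are shown because these members had counts in some groups and none in at least 1 other. The stretches run from 250 bases before to 50 bases after a RefSeq start site of the build GRCm38.p6, which is not the build of the counts (GRCm39), and they are written along the gene's strand. RefSeq windows were found for 5 of the 10 members, 8 windows in all. Capitals mark GGAAA or its complement TTTCC, the core recognised by NFAT factors such as NFATc1, the master regulator of osteoclast genes.
Ctsk, chr3:95498960-95499259, plus strand: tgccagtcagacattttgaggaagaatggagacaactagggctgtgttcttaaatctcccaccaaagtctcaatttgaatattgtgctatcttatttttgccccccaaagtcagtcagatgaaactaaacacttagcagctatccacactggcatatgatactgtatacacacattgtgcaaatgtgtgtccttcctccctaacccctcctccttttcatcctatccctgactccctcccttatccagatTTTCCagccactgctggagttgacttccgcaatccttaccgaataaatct
Acp5, chr9:22130549-22130848, minus strand: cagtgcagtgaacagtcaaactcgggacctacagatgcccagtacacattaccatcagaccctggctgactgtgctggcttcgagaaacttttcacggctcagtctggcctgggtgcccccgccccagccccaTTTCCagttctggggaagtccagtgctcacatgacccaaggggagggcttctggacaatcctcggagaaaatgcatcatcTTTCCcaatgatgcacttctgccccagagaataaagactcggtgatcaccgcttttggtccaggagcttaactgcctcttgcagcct
Tnfsf11, chr14:78307994-78308293, minus strand: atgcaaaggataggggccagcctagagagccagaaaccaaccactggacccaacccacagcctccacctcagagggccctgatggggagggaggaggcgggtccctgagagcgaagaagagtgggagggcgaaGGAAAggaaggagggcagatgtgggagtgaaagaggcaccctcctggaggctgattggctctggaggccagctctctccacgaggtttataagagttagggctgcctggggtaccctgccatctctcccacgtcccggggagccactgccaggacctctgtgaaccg
The window of *Ctsk* held 1 core, the window of *Acp5* at the furthest downstream of its 3 starts held 2, and that of *Tnfsf11* held 1. The other 2 windows of *Acp5*, which are not shown, held 1 core each. Of 32851 promoter windows of the same length, 61.3% held 1 or more and 26.7% held 2 or more, on either strand, so that these letters are common. GGTCA or its complement TGACC, the core of estrogen response elements, occurred in 1 of the 3 *Acp5* windows, the one shown, and not in those of *Ctsk* and *Tnfsf11*. It occurred in 40.5% of all windows. These matches are descriptions of letters and not of binding.

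*Tnfsf11* (ENSMUSG00000022015, chromosome 14, 78514885 to 78545483, GRCm39, minus strand) encodes RANKL, the ligand of the system. It had 0 counts in 19 of 20 libraries. In replicate 11 of the OVX + E2 group it had 42 counts, or 27.9 CPM (95% exact binomial interval 20.1 to 37.7 CPM). The groups overlapped at 0, since the other 4 OVX + E2 libraries were empty as well. The mean of the OVX + E2 group was 5.57 ± 12.5 CPM (SD, n = 5), at least 3.13-fold higher than OVX + v when the empty group is set to the floor of 3 counts in each library. This whole difference rested on 1 library, and in bulk tissue fewer cells of a type and less RNA per cell cannot be told apart. In edgeR's quasi-likelihood test the fitted log2 fold change was 6.09 (SE 2.91) and the Benjamini-Hochberg adjusted p = 0.351.

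*Tnfrsf11a* (ENSMUSG00000026321, chromosome 1, 105708443 to 105775709, plus strand) encodes RANK, the receptor on osteoclast precursors. Replicate 3 of the sham + v group had 23 counts (13.6 CPM, 95% exact interval 8.64 to 20.5). Replicates 5, 9, 10 and 11 had 1 count each and replicate 18 had 2. The other 14 libraries were at 0, and the receptor was thus above the floor in 1 library, in which neither RANKL nor osteoprotegerin was counted. The sham + v mean of 2.86 ± 6.03 CPM was at least 1.60-fold higher than that of OVX + v, and without replicate 3 it was 0.166 CPM, under the floor. The fitted log2 fold change was 3.24 (SE 2.88, adjusted p = 1.00 by edgeR's quasi-likelihood test (Benjamini-Hochberg)), and the gene was too low to be tested against OVX + v in the other groups.

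*Tnfrsf11b* (ENSMUSG00000063727, chromosome 15, 54114015 to 54141880, minus strand) encodes osteoprotegerin, the decoy receptor, and was the member of the ligand and receptor system with the most counts. Its counts in the OVX + v libraries 6 to 10 were 8, 49, 28, 29 and 28, or 4.98, 30.7, 15.9, 14.4 and 19.5 CPM. The sham + v libraries 1 to 5 held 0, 33, 0, 19 and 0 counts, of which the filled ones made 17.3 and 10.6 CPM. All 5 OVX + v libraries were filled, against 2 of 5 in sham + v, and the filled levels overlapped.

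The OVX + E2 libraries 11 to 15 held 42, 0, 0, 128 and 0 counts of *Tnfrsf11b*, with 27.9 and 114 CPM in the filled libraries. In libraries 16 to 20 of the OVX + RAL group there were 0, 102, 36, 0 and 0 counts, with 54.9 and 21.1 CPM. Every other group thus had 2 libraries with osteoprotegerin, against all 5 of OVX + v, while the highest single levels lay in the treated groups. The median was 15.9 CPM in OVX + v and 0 in each of the other 3 groups. The means told another order: 5.59 ± 8.01 CPM in sham + v, 17.1 ± 9.32 in OVX + v, 28.4 ± 49.4 in OVX + E2 and 15.2 ± 24.0 in OVX + RAL (SD, n = 5 each).

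No difference of *Tnfrsf11b* exceeded the spread between libraries. The log2 fold change against OVX + v was -1.60 (SE 2.21) in sham + v, 0.73 (SE 1.75) in OVX + E2 and -0.17 (SE 1.66) in OVX + RAL, with adjusted p = 1.00 in all 3 by edgeR's quasi-likelihood test. Its direction in the OVX + E2 group hung on replicate 14, without which the log2 fold change was -1.28, and limma on log2(CPM + 1), a scale on which single high libraries weigh less, gave -1.65. In OVX + RAL the direction also turned, with values from -1.68 to 0.15 when each library was left out in turn. Replicate 11 of the OVX + E2 group was the library that held both osteoprotegerin and RANKL, with 42 counts of each.

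*Ctsk* (ENSMUSG00000028111, chromosome 3, 95406567 to 95416673, plus strand) encodes cathepsin K, the collagen-degrading protease that osteoclasts secrete onto bone. The sham + v libraries 1 to 5 held 78, 126, 24, 0 and 0 counts, or 38.0, 66.1 and 14.2 CPM in the filled ones. The OVX + v libraries 6 to 10 held 23, 7, 39, 0 and 0 counts, with 14.3, 4.39 and 22.1 CPM. These groups overlapped, with 3 filled libraries in each.

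All 5 OVX + RAL libraries held *Ctsk*, with 33, 21, 19, 9 and 53 counts, or 16.97, 11.3, 11.2, 4.72 and 25.5 CPM. All 5 OVX + E2 libraries held 0 counts, where 3 counts would have made 1.99 to 2.67 CPM. The ranges of the treated groups therefore did not overlap, and the lowest OVX + RAL library lay above the floor of every OVX + E2 library. Of the 13753 genes tested between these groups, 0.669% had all OVX + E2 libraries below all OVX + RAL libraries. *Acp5* shared the empty OVX + E2 group without being filled across OVX + RAL.

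The mean of *Ctsk* was 23.7 ± 28.4 CPM in sham + v, 8.17 ± 9.75 in OVX + v, 0 in OVX + E2 and 13.9 ± 7.77 in OVX + RAL (SD, n = 5). OVX + E2 was at least 3.61-fold lower than OVX + v, at least 6.15-fold lower than OVX + RAL and at least 10.5-fold lower than sham + v. With each library of the higher group left out in turn, these bounds ran from 2.07 to 4.51, from 4.88 to 7.17 and from 5.77 to 13.1, with the lowest values without replicates 8, 20 and 2. For OVX + E2 the fitted log2 fold change was -6.63 (SE 3.14, adjusted p = 0.351) against OVX + v and -7.50 (SE 3.25, adjusted p = 0.353) against OVX + RAL in edgeR's test. The adjusted p of the latter ran from 0.167 to 0.823 over the alternatives, so that the difference did not pass the threshold of 0.05 under any of them. Against OVX + v, sham + v was 1.53 (SE 1.88) and OVX + RAL 0.76 (SE 2.02) on the log2 scale, both with adjusted p = 1.00 by the same edgeR test. Without replicate 2 the value of sham + v was 0.67, and without replicate 8 that of OVX + RAL was 1.56.

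The summed osteoblast, macrophage and neutrophil markers also had lower means in OVX + E2 than in OVX + RAL. The 12 osteoblast and osteocyte markers summed to 201 ± 143 CPM in OVX + E2 and 272 ± 123 in OVX + RAL, and the 12 macrophage markers to 343 ± 162 and 426 ± 115 CPM, both with overlapping ranges. Of the 11 osteoblast and osteocyte markers tested, 6 lay below 0 against OVX + RAL, with a median log2 fold change of -0.67, and 4 lay below 0 against OVX + v, with a median of 0.59, with 1 lower and 1 higher at an unadjusted p under 0.05 and 0 called by edgeR in each. Of the 11 macrophage markers tested between these groups, 7 had a log2 fold change below 0 and 4 above 0, with a median of -0.09 beside -0.01 over all genes tested, and 2 had an unadjusted p under 0.05, with 0 called by edgeR. Against OVX + v, where the same markers summed to 455 ± 205 CPM, 8 of 12 lay below 0 in OVX + E2, with a median of -0.50 beside -0.06 over all genes tested, and 3 were lower at an unadjusted p under 0.05, with 0 called by edgeR. Within the list, *Lyz2*, which encodes lysozyme, lay at 178 CPM on average in OVX + E2 and 185 in OVX + RAL. *C1qc*, a complement gene of tissue macrophages, lay at 86.2, 0, 0.802, 0 and 2.1 CPM in the OVX + E2 libraries and at 65.3, 67.3, 31.1, 79.7 and 108 CPM in OVX + RAL, with a log2 fold change of -1.97 (SE 1.2, adjusted p = 0.573 by edgeR). Replicate 11 alone of the OVX + E2 group overlapped with OVX + RAL, and it held 0 counts of *Ctsk*. *C1qb*, which encodes another chain of the same complement protein, lay at 86.2, 3.78, 85.8, 1.78 and 0.701 CPM in OVX + E2 and at 16.5 to 102 CPM in OVX + RAL, with a log2 fold change of -0.47 (SE 1.18, adjusted p = 1.00 by edgeR), and replicates 11 and 13 lay inside the OVX + RAL range. The 12 neutrophil markers summed to 4.53 ± 9.63 CPM in OVX + E2 and 28.3 ± 31.5 in OVX + RAL, and 9 of the 12 were at 0 in OVX + E2. In OVX + v they summed to 68.5 ± 94.0 CPM, with 102, 0, 21.5, 219 and 0 CPM in libraries 6 to 10. Their counts there thus came mainly from replicates 6 and 9, so that these markers are not independent of each other. Of the 5 neutrophil markers tested against OVX + RAL, 3 were lower and 1 higher in OVX + E2 at an unadjusted p under 0.05, where 14.1% of all genes had one in either direction. The higher one, chosen after its values were seen, was *Lcn2*, at 4.21 CPM on average in OVX + E2 and 0 in OVX + RAL. Replicate 15 was the only OVX + E2 library in which a neutrophil marker reached 3 counts. Against OVX + v, 6 of 7 were lower at an unadjusted p under 0.05, where 13.9% of all genes had one in either direction, and 0 were called by edgeR in both comparisons. The OVX + E2 libraries also held fewer genes, as given above. The part of these differences in the values of *Ctsk* was not tested.

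**Figure D3:**
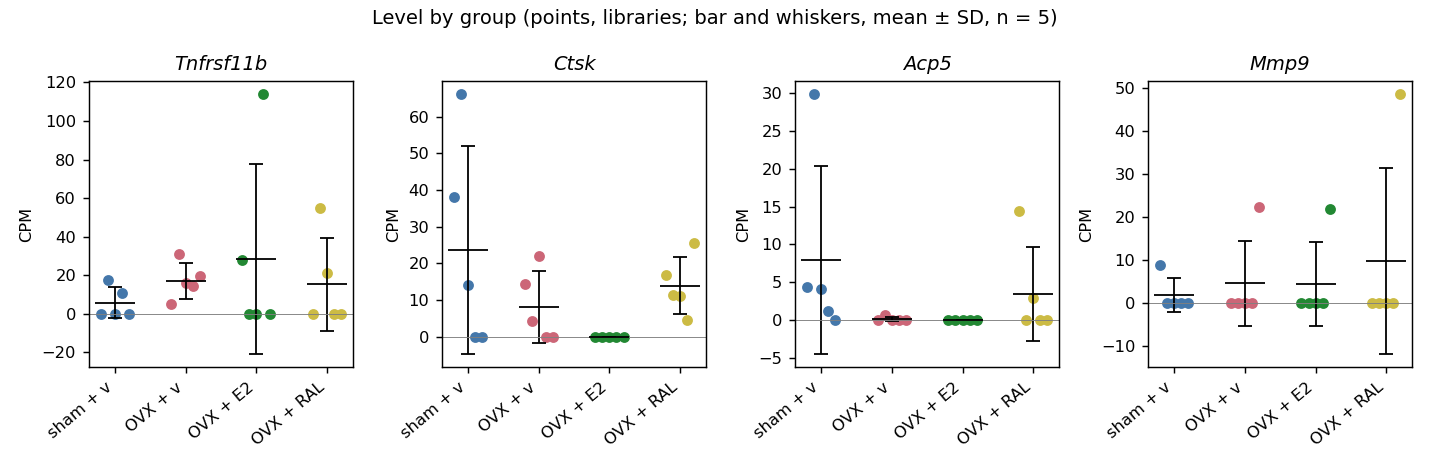
CPM of *Tnfrsf11b*, *Ctsk*, *Acp5* and *Mmp9* by group on linear axes, with each library as a point and the mean ± SD (n = 5) as a bar with whiskers, which can reach below 0. *Ctsk* lies at 0 in all OVX + E2 libraries and between 4.72 and 25.5 CPM in OVX + RAL, and *Mmp9* is above 0 in 1 library of each group.

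*Acp5* (ENSMUSG00000001348, chromosome 9, 22038023 to 22047007, minus strand) encodes tartrate-resistant acid phosphatase (TRAP), the enzyme stained to recognise osteoclasts. The sham + v libraries 1 to 5 held 9, 57, 7, 2 and 0 counts, which made a mean of 7.91 ± 12.4 CPM. The OVX + v group had 1 count in all, in replicate 7, and OVX + E2 had 0. In the OVX + RAL group, replicate 16 held 28 counts and replicate 18 held 5, with 3.47 ± 6.24 CPM on average. TRAP thus exceeded the floor in 3 sham + v and 2 OVX + RAL libraries and in no library of OVX + v or OVX + E2.

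Against OVX + v, *Acp5* was at least 4.44-fold higher in sham + v and at least 1.95-fold higher in OVX + RAL, and the ranges overlapped at 0 in both. Each bound turned on 1 library. Without replicate 2 the sham + v mean was 2.41 CPM and the bound 1.35-fold, and without replicate 16 the OVX + RAL mean was 0.734 CPM, under the floor, so that no fold remained against OVX + v or OVX + E2. The fitted log2 fold changes were 5.35 (SE 3.33, adjusted p = 0.720 by edgeR) and 4.19 (SE 3.02, adjusted p = 0.898). OVX + E2 was at least 1.53-fold lower than OVX + RAL, with a fitted log2 fold change of -5.51 (SE 2.77, adjusted p = 0.353 by the same edgeR test). The library with the most TRAP in the sham + v group, replicate 2, was also the one with the most cathepsin K. The last exon of *Acp5* overlaps the non-coding gene *6530413G14Rik* on the other strand, and the sources used here do not say whether strand was used in counting, so that reads of the pair may not be told apart.

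*Mmp9* (ENSMUSG00000017737, chromosome 2, 164782700 to 164797770, plus strand) encodes gelatinase B, a matrix protease of osteoclasts and of neutrophils. It was counted in 1 library of each group, at 18 counts in replicate 1, 32 in replicate 10, 31 in replicate 15 and 101 in replicate 20. These made 8.77, 22.3, 21.7 and 48.5 CPM. The other 16 libraries were at 0, and no group stood apart. The log2 fold changes against OVX + v were -1.31 (SE 2.99) in sham + v, -0.03 (SE 2.84) in OVX + E2 and 1.12 (SE 2.47) in OVX + RAL, with adjusted p = 1.00 in each by edgeR's quasi-likelihood test. Single libraries decided these signs: without replicate 10 the log2 fold change was 4.69 in sham + v and 5.75 in OVX + E2, and without replicate 20 it was -5.99 in OVX + RAL. The neutrophil markers summed to 155 CPM in replicate 1, to 0 in replicate 10, and to 21.7 and 17.8 CPM in replicates 15 and 20.

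The genes of fusion and of the mature cell were close to or at 0. *Ocstamp* (chromosome 2, 165235680 to 165242325), which encodes a membrane protein needed for fusion, had 1 count in replicate 16 (0.514 CPM), below the floor. Of the windows of 63 nucleotides in the last 400 nucleotides of its transcript, 17.2% also occurred in other genes, against 0% for the other 9 members, so that this 1 read is uncertain. *Dcstamp* (chromosome 15, 39609326 to 39624334), its partner in fusion, and *Calcr* (chromosome 6, 3685680 to 3764714), the calcitonin receptor through which calcitonin restrains osteoclasts, were at 0 in all 20 libraries. *Atp6v0d2* (chromosome 4, 19876841 to 19922605), a subunit of the proton pump enriched in osteoclasts, was at 0 as well. Each 0 allows up to 1.44 to 2.67 CPM per library, and differences below this were not detectable at this depth.

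Counted over the members, 0 passed an adjusted p of 0.05 in any comparison. For sham + v against OVX + v, 0 of the 5 members tested were called by edgeR, where 0.0145% of all tested genes were, and 0 had an unadjusted p under 0.05, where 12.5% of all did. For OVX + E2 against OVX + v, 0 of 4 were called (all genes 0.0584%) and *Tnfsf11* and *Ctsk* had an unadjusted p under 0.05 (all genes 13.9%). For OVX + RAL against OVX + v, 0 of 4 were called (all genes 0.0286%) and 0 had an unadjusted p under 0.05 (all genes 12.1%). For OVX + E2 against OVX + RAL, 0 of 5 were called (all genes 0.0727%) and *Tnfsf11*, *Ctsk* and *Acp5* had an unadjusted p under 0.05 (all genes 14.1%). DESeq2 and limma also called 0 members in each of these. The 3 comparisons with OVX + v share its libraries, as the last one shares those of the treated groups.

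OVX + v was also set against the mean of the other 3 groups. Here 0 of 6 members were called by edgeR, where 1.9% of all genes were, and 0 had an unadjusted p under 0.05, where 8.78% of all did. The log2 difference was 0.35 (SE 1.47) for *Tnfrsf11b*, 1.50 (SE 1.16) for *Ctsk*, 0.07 (SE 2.01) for *Mmp9* and -0.88 (SE 2.41) for *Tnfrsf11a*. For *Acp5* (-2.69, SE 77.9) and *Tnfsf11* (-2.08, SE 3390), which were at 0 in at least 1 group, the SE left the difference undetermined. The median over the 6 members, which takes in the undetermined values of *Acp5* and *Tnfsf11*, was -0.40, with 3 above and 3 below 0, beside 0.09 over all genes tested. In this fit a group at 0 lowers the mean of the others on the log scale. With the other 15 libraries taken as 1 group, an alternative added after the data were seen, the difference of *Ctsk* was -0.62. In that fit it was -4.69 for *Tnfsf11*, -4.28 for *Acp5*, -1.88 for *Tnfrsf11a*, -0.24 for *Mmp9* and 0.06 for *Tnfrsf11b*, with 0 members called. Of the 283 genes called in this comparison, 277 had at least 1 other group at 0 and 210 were counted in 1 OVX + v library.

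The machinery around the members was better represented. Of 28 genes of RANK signalling 27 had a count, of 18 of the M-CSF and costimulation list 16, of 19 of acid secretion and attachment all 19, of 23 other subunits of the V-ATPase 22, and of 22 regulators of RANKL 16. In these lists 14, 4, 13, 17 and 4 genes reached 3 counts in at least 15 libraries. The genes at 0 in all 20 libraries were *Fos*, *Oscar*, *Siglec15*, *Atp6v1b1*, *Ptger2*, *Il1a*, *Il1b*, *Il17a*, *Tnf* and *Osm*, of which *Oscar* and *Siglec15* encode receptors of osteoclasts and several others encode cytokines that raise RANKL. Many of the genes that were counted serve every cell.

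Of the RANK signalling genes, *Ppp3ca*, which encodes a catalytic subunit of calcineurin, had a mean of 160 CPM over the 20 libraries, *Tab2*, an adaptor of TAK1, 117 CPM and *Cyld*, a deubiquitinase that restrains the pathway, 107 CPM. No gene of this list passed the adjusted threshold in the 3 comparisons with OVX + v. The median log2 fold change was -0.17 in sham + v, -0.03 in OVX + E2 and 0.28 in OVX + RAL over 25 tested genes each, beside -0.02, -0.06 and -0.03 over all genes tested. The genes with the smallest p were *Traf2* in sham + v and *Traf5* in OVX + E2 and OVX + RAL, adaptors of TNF receptors. *Traf5* was at 0 in all sham + v and OVX + v libraries, at 42.1 CPM in replicate 15 alone in OVX + E2, and at 17.8, 1.05 and 8.17 CPM in replicates 17, 19 and 20.

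In the M-CSF and costimulation list, *Bcl2*, a survival factor, had a mean of 78.2 CPM, *Mitf*, a transcription factor of osteoclasts that also serves pigment cells, 36.4 CPM and *Csf1r*, the receptor of M-CSF, 30.9 CPM. *Mitf* was at 61.7, 67.2, 114, 135 and 17.5 CPM in the OVX + E2 libraries and at 0, 33.2, 5.67, 14.9 and 0 CPM in OVX + v. These ranges overlapped through replicates 15 and 7. Its log2 fold change was 2.87 (SE 1.24, adjusted p = 0.351 by edgeR's quasi-likelihood test). *Csf1r* lay at 47.3 CPM on average in OVX + v, 21.1 in sham + v, 20.8 in OVX + E2 and 34.2 in OVX + RAL, and none of these passed the test. The list's median log2 fold change was -0.13, -0.19 and -0.40 in sham + v, OVX + E2 and OVX + RAL, with 0 genes called. *Plcg2* and *Tfec* had the smallest p in sham + v and OVX + RAL, and *Tfec* exceeded the floor in 1 library, replicate 9.

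Acid secretion and attachment held the lysosomal proteases *Ctsb*, *Ctsd* and *Ctsl*, at means of 424, 313 and 312 CPM, which are present in most cells. The median log2 fold change was -0.08, -0.21 and -0.11 in the 3 comparisons, with 0 of 19 genes called in each. *Mmp14*, a membrane-bound matrix protease, lay at 107 CPM on average in OVX + E2, 139 in OVX + RAL, 172 in sham + v and 252 in OVX + v. Its log2 fold change was -1.23 (SE 0.48, adjusted p = 0.351) in OVX + E2 and -0.86 (SE 0.37, adjusted p = 0.402) in OVX + RAL by edgeR's quasi-likelihood test. *Ostm1*, a partner of the chloride transporter *Clcn7* at the resorbing membrane, was at 6.23, 10.7, 41.4, 1.98 and 57.8 CPM in OVX + v and at 0 in all 5 OVX + E2 libraries, an adjusted p of 0.351 by the same edgeR test. DESeq2 called it. *Snx10*, a sorting factor of the same membrane, was at 0 in all 5 sham + v libraries. In OVX + v it was at 48.6, 0, 0, 16.3 and 14.6 CPM (15.9 CPM on average), so that the groups overlapped at 0. Its adjusted p was 0.363 by edgeR.

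The V-ATPase is the proton pump of lysosomes and of the resorbing membrane. Its subunits *Atp6v0c*, *Atp6v1f* and *Atp6v0b* had means of 438, 420 and 300 CPM, while *Atp6v0d2* was at 0. The common form of that subunit, *Atp6v0d1*, had a mean of 25.1 CPM. With 0 subunits called, the median log2 fold change was -0.03 in sham + v, -0.11 in OVX + E2 and 0.08 in OVX + RAL. *Atp6v1g3* had the smallest p in sham + v, where it was at 0, and in OVX + v it was counted in replicate 7 alone (15.1 CPM). *Atp6v1a*, the catalytic subunit, lay at 129, 43.8, 154, 0.890 and 89.1 CPM in OVX + E2 and at 171, 237, 141, 321 and 253 CPM in OVX + v. Replicate 13 alone of the OVX + E2 group reached into the OVX + v range. Its log2 fold change was -1.43 (SE 0.52, adjusted p = 0.351 by edgeR's quasi-likelihood test), and *Atp6v1d* had the smallest p in OVX + RAL at 0.79 (SE 0.35, adjusted p = 0.402 by the same edgeR test).

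Among the regulators of RANKL, *Ctnnb1*, which encodes beta-catenin, had a mean of 757 CPM, *Wnt5a* 238 CPM and *Il6st*, a shared cytokine receptor chain, 185 CPM. *Wnt5a* had the smallest p in sham + v, with a log2 fold change of -0.80 (SE 0.35, adjusted p = 0.363 by edgeR's quasi-likelihood test). *Ptgs2*, which makes prostaglandins, was at 0 in OVX + v and was filled in replicates 3, 12 and 17 alone. *Pthlh*, a hormone that raises RANKL, was filled in replicates 16 and 17 at 23.7 and 12.9 CPM, with 2.80 CPM in replicate 4. The list's median log2 fold change was -0.13, 0.17 and 0.12, with 0 genes called.

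**Figure D4:**
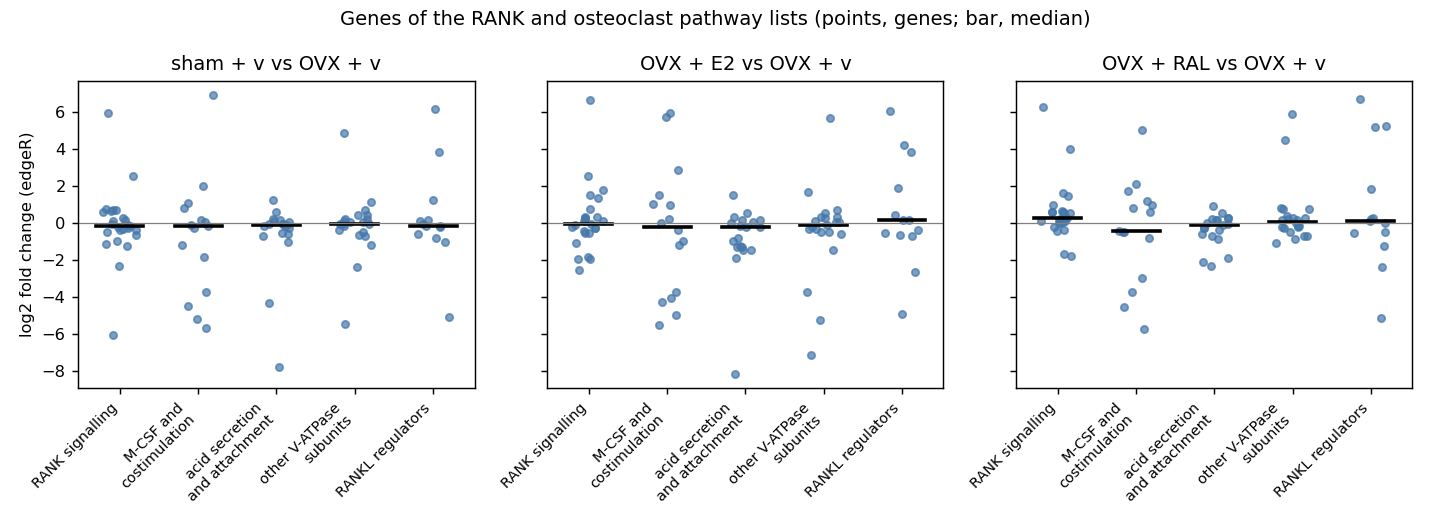
Log2 fold change by edgeR's quasi-likelihood fit (vertical axis) of each tested gene of the 5 lists in the 3 comparisons with OVX + v, with a bar at the median. The medians lie between -0.40 and 0.28, and the points far from 0 are mostly genes with counts in few libraries.

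Between OVX + E2 and OVX + RAL, 0 genes of the 5 lists were called. Against the mean of the other 3 groups, *Sirpb1a*, a receptor of osteoclast precursors, and *Il6*, a cytokine that raises RANKL, were called higher in OVX + v, with adjusted p = 0.0493 and 0.0386 by edgeR's quasi-likelihood test. Each had counts in 1 library: *Sirpb1a* 7.66 CPM in replicate 10 and *Il6* 11.8 CPM in replicate 6. Both were at 0 in the other 19 libraries. DESeq2 and limma called neither, and with the other 15 libraries as 1 group both had an adjusted p of 0.0202 by edgeR.

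Genes of the marker lists for osteoblasts, macrophages, neutrophils, B cells and erythroid cells were counted in every group. The tissue they came from was not tested. The osteoblast and osteocyte markers summed to 43.1 to 448 CPM over the 20 libraries, led by *Col1a1* (55.7 CPM on average), *Ibsp* (54.6 CPM) and *Fam20c* (39.2 CPM), and the matrix gene *Bglap2* had the smallest p in sham + v and OVX + RAL, with counts in replicates 2, 5 and 16 alone. *Dmp1* had the smallest p in OVX + E2, with counts in replicates 2 and 11 alone. The group means of the osteoblast and osteocyte sum were 268 ± 142 CPM in sham + v, 154 ± 104 in OVX + v, 201 ± 143 in OVX + E2 and 272 ± 123 in OVX + RAL. Macrophage markers summed to 166 to 1031 CPM, led by *Lyz2* at 227 CPM. *Aif1* had the smallest p in sham + v and *Adgre1* in OVX + E2, and each was at 0 there. In OVX + v, *Aif1* was counted in replicate 10 alone (9.76 CPM) and *Adgre1* in replicate 6 alone (28.7 CPM). Neutrophil markers summed to 0 to 219 CPM, with *Mpo*, *Elane* and *Mmp8* at 0 in all libraries. The B cell markers *Ms4a1*, *Ighm*, *Igkc* and *Pax5* were at 0 in all, and the erythroid markers summed to 363 to 3837 CPM. No marker of these lists was called in the pairwise comparisons. *Retnlg* and *Slc4a1* were called higher in OVX + v against the mean of the other groups, each with counts in 1 or 2 OVX + v libraries and in no other. The library with the most cathepsin K and TRAP, replicate 2, had the highest osteoblast sum of its group at 445 CPM, while replicate 15, with the highest sum of all, had 0 counts of both. The part of these cells in the members' levels was not tested.

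**Figure D5:**
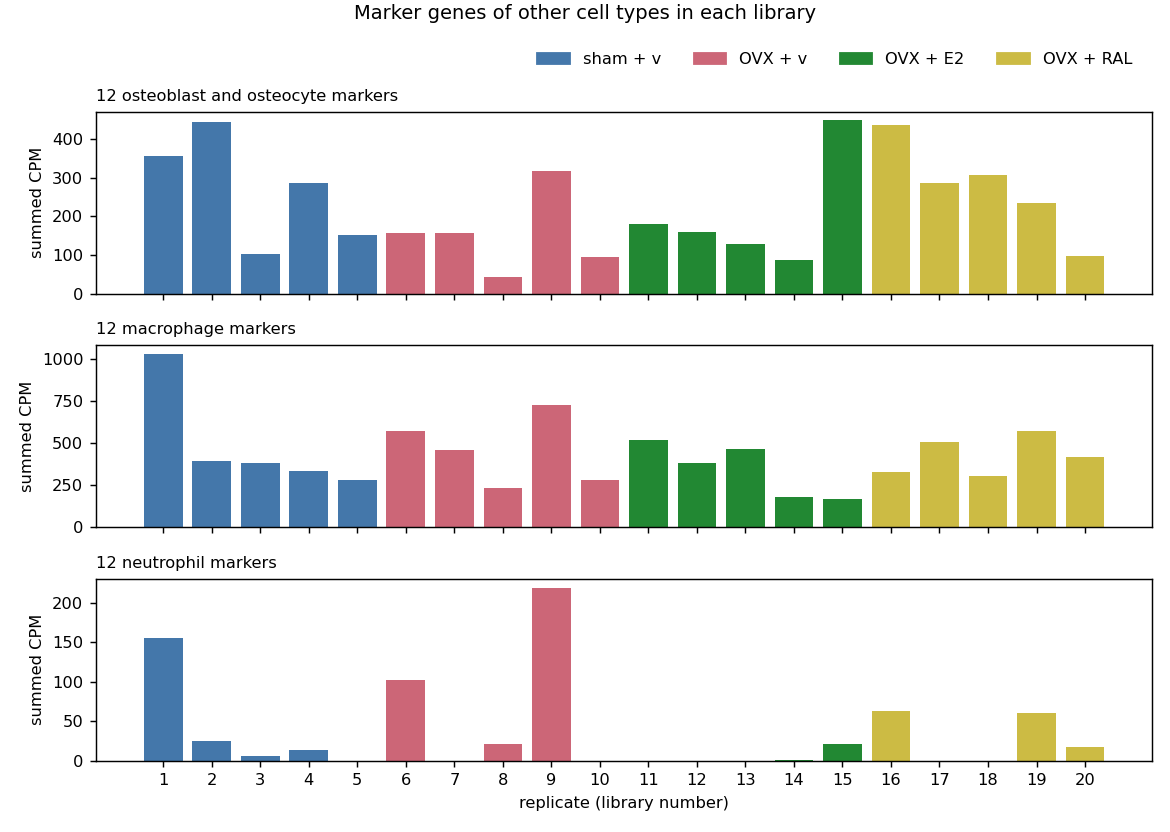
Summed CPM of the markers of osteoblasts and osteocytes, macrophages and neutrophils (12 genes each, bars from 0) in each of the 20 libraries, coloured by group. The highest osteoblast sums were 445 CPM in replicate 2 and 448 CPM in replicate 15, and the neutrophil sum reached 219 CPM in replicate 9.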

How the data were processed

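RNA of the mouse utricle was sequenced in 20 libraries, grouped by the treatment in their labels. Per the study's methods, QuantSeq 3′ libraries were made from 1 ng of total RNA, reads were trimmed (including the first 12 nucleotides), those under 20 nucleotides were dropped, and the rest were mapped to GRCm39 in CLC Genomics Workbench. Its version and its handling of strand and of reads matching several genes are not given in the sources used here. The values used are the counts of reads per gene that the authors deposited, without normalization. The deposited CPM, TPM and RPKM and the authors' log2 fold changes and p-values were not used.

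Counts were divided by the library's total count to give CPM (1123053 to 2081747), so that 3 counts make 1.44 to 2.67 CPM. Genes with at least 10 counts over the fitted libraries were tested by edgeR's quasi-likelihood test (glmQLFit and glmQLFTest) in the 10 libraries of a comparison, or in all 20 for OVX + v against the mean of the others, with Benjamini-Hochberg adjustment over all tested genes and a threshold of 0.05. SEs were obtained as the size of the fitted log2 change over the root of the F statistic. A fold against a group with no library above 3 counts is a lower bound, with that group's mean set to the mean CPM of 3 counts per library. Intervals of counts are exact binomial intervals of the count in the library's total. The pipeline was tested on simulated data.

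The members and lists were chosen with earlier results of these data known. Named are all members and, of each other list, the genes past the threshold, the 3 with the highest mean CPM and the one with the smallest p in each comparison with OVX + v; *Atp6v0d1* was added after its values were seen, and genes at 0 are named. One list name, *Ahsp*, is not among the genes counted. Hair cell, supporting cell, neutrophil, B cell and erythroid lists are given mainly by their summed level and counts, and results of some of their genes are not reported here. Of 40 pairs of replicates, 0 had identical counts. Alternatives were the default filter of edgeR or none, TMM, DESeq2, limma on log2(CPM + 1) and log2(CPM + 0.1), the robust fit, all 4 groups in 1 fit, each library left out in turn (also for lower bounds of folds, added after the data were seen), and the other 15 libraries as 1 group. Tools were R 4.3.3, edgeR 4.0.16, limma 3.58.1, DESeq2 1.42.0, Python 3.11.15, matplotlib 3.10.9, pandas 2.3.3, scipy 1.17.1 and numpy 2.4.6. Sequences shared between genes were searched in GENCODE vM39 of GRCm39.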

Additional observations from a re-analysis of the deposited data

Results flagged for a closer look

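In groups of 5, a library was singled out where its gap to the nearest of the other 4, divided by the range of the group, exceeded 0.71. For normally distributed values, chance singles out about 1 in 20 groups, or 3.4 of the 68 tested. Of the 20 groups of members that were tested, 13 had such a library, and of the 48 groups of summed lists 6 had one. A gene counted in a single library of a group always meets this rule, so that the rate of 1 in 20 does not hold for the members.

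For RANKL this was *Tnfsf11* in replicate 11 (27.9 CPM). For RANK it was *Tnfrsf11a* in replicate 3 (13.6 CPM), replicate 11 (0.663 CPM) and replicate 18 (1.17 CPM), the last 2 below the floor of 3 counts. For osteoprotegerin it was *Tnfrsf11b* in replicate 14 (114 CPM). *Acp5* stood apart in replicate 2 (29.9 CPM), replicate 7 (0.627 CPM, 1 count) and replicate 16 (14.4 CPM). *Mmp9* did so once in every group, in replicate 1 (8.77 CPM), replicate 10 (22.3 CPM), replicate 15 (21.7 CPM) and replicate 20 (48.5 CPM), and *Ocstamp* in replicate 16 (0.514 CPM, 1 count). *Ctsk* met the rule in no group.

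Among the summed lists, the regulators of RANKL were low in replicate 20 (1045 CPM). Osteoblast and osteocyte markers were high in replicate 15 (448 CPM), as were erythroid markers (3837 CPM) and neutrophil markers (21.7 CPM) in the same library. Macrophage markers (1031 CPM) and neutrophil markers (155 CPM) were high in replicate 1. Replicates 1 and 15 also held the *Mmp9* counts of their groups, and whether the 2 go together was not tested.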

How the results depend on the processing

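No paired analysis was possible because the labels number the libraries 1 to 20 and no number is shared between groups. The count of members past the threshold stayed at 0 in all 100 recomputations over the 5 comparisons. Of 468 recomputed fold changes of members, 435 kept their sign, 33 turned it and 0 passed the threshold. Where the sign turned, the cause was not tested. For *Tnfrsf11b* in OVX + E2 against OVX + v (0.73 on the log2 scale), limma gave -1.65 with a pseudocount of 1 and -3.55 with 0.1. For OVX + v against the mean of the other groups, *Ctsk* went from 1.50 to -0.081 with limma on log2(CPM + 1) and to -0.62 with the other 15 libraries as 1 group, *Tnfrsf11a* from -0.88 to 0.0044 with limma on log2(CPM + 0.1), and *Mmp9* from 0.07 to -0.24 with the 15 libraries as 1 group. With each library left out in turn, *Mmp9* ranged from -5.94 to 4.69 in sham + v, from -5.78 to 5.75 in OVX + E2 and from -5.99 to 7.16 in OVX + RAL against OVX + v, from -7.00 to 5.79 between OVX + E2 and OVX + RAL, and from -5.86 to 2.41 for OVX + v against the mean of the others. *Tnfrsf11b* ranged from -1.28 to 1.05 in OVX + E2 and from -1.68 to 0.15 in OVX + RAL against OVX + v, and from -1.12 to 2.41 between these groups. Of the genes of the 5 pathway lists, 2 were called for OVX + v against the mean of the others, *Il6* and *Sirpb1a*. This count was 0 with DESeq2, 0 with the default filter of edgeR, 0 with limma at either pseudocount, 1 with the robust fit, 0 to 1 with a library left out and 2 with the other 15 libraries as 1 group, where 298 of all genes were called in place of 283. Against OVX + v, the count was 0 in every group and became 1 with DESeq2 in OVX + E2 (*Ostm1*) and ranged from 0 to 1 with a library left out in OVX + RAL (*Lgr4*, without replicate 16). The correlations with marker sums and their alternatives were not run, since 0 members had the detection set for them. A level under 1.44 to 2.67 CPM is not seen in single libraries.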
